A study of Homo sapiens with 7 samples.

Results

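The genes described here are the NF-kB genes, the TNF locus and the feedback inhibitors of the pathway: NFKB1, NFKB2, REL, RELA, RELB, NFKBIA, TNFAIP3, TNF, LTB and BCL3. They are 10 of the 20162 protein-coding genes of the annotation, lie on 7 chromosomes and were chosen by name as a pathway. ChIP-seq had been carried out in Kasumi-1, an established myeloblast line from peripheral blood that carries the t(8;21) translocation and so makes the fusion protein AML1-ETO beside normal AML1 (RUNX1). The cells were untreated and growing in log phase, and there was a single condition. The antibodies were against AML1 (a C-terminal epitope that the fusion lacks), ETO (which serves to recover AML1-ETO), the co-repressor N-CoR, the co-activator p300, and H3K4me3, the trimethylated histone H3 found at active promoters. For each antibody 1 processed list of peak summits, called on pooled replicates, was used here, with 19632 summits of H3K4me3, 18087 of AML1-ETO, 11692 of AML1, 11020 of p300 and 10004 of N-CoR. The lists hold positions on GRCh37 (hg19) without read counts or scores, so the number of reads behind a summit is unknown, no replicate error can be given, and no test was made. Each list stands for a single cell line. Expression was not analysed here.

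NF-kB is a family of dimeric transcription factors. NFKB1 and NFKB2 encode the precursors p105 and p100, which are processed to p50 and p52, whereas REL, RELA and RELB encode the subunits c-Rel, p65 and RelB that carry activation domains. In resting cells the dimers are held in the cytoplasm by inhibitors such as IkB-alpha, the product of NFKBIA, and signals from receptors of the TNF family release them. The released factors induce genes for cytokines, among them TNF and LTB, and genes that end the response: NFKBIA itself and TNFAIP3, whose product A20 edits ubiquitin chains on signalling proteins. BCL3 is an atypical member of the IkB family that acts in the nucleus with p50 or p52. In myeloid cells the pathway controls inflammatory genes and survival.

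A summit was assigned to a gene when it lay in the gene body or within 5 kb of it, and a wider view took in 75 kb on either side. All 10 genes had a site of at least 1 of the 4 proteins within 5 kb, as did 61.5% of protein-coding genes. They also had at least 1 H3K4me3 summit within 5 kb, against 68% of all protein-coding genes. The p300 list had a summit at 9 of the 10 (45.5% of all genes) and the AML1-ETO list at 8 (41.4%). AML1 was found at 7 (34.9%), and so was N-CoR (26.7%). RELA was the gene without p300. RELA, RELB and TNF were those without N-CoR. The median length of the members was 10916 bp against 27220 bp for all protein-coding genes, although NFKB1, REL and RELB are longer than the latter. Within 75 kb every list had a summit at every member except N-CoR at RELB. In this wider window, summits were also present for most genes of the genome, at 84.4% for H3K4me3, 73% for AML1-ETO, 69.7% for p300, 66.9% for AML1 and 55.8% for N-CoR.

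**Figure D1:**
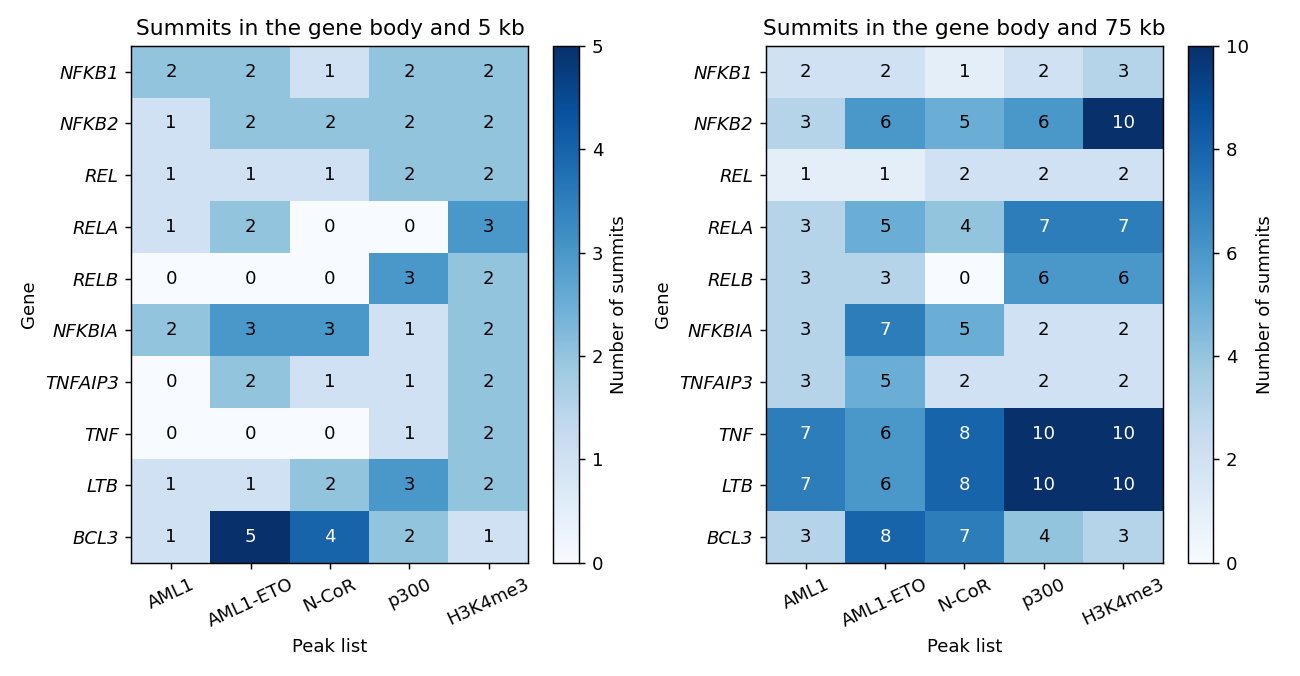
Number of summits of each of the 5 peak lists (columns) at each of the 10 genes (rows), in the gene body and 5 kb on the left and in the gene body and 75 kb on the right. BCL3 has 5 AML1-ETO and 4 N-CoR summits within 5 kb, RELB has no N-CoR summit in either window, and TNF goes from 1 p300 summit among the protein lists within 5 kb to 7 AML1, 6 AML1-ETO, 8 N-CoR and 10 p300 summits within 75 kb.

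Summits of the 4 proteins were joined into a site when windows of 50 bp to either side of them shared at least 1 bp. The genome held 29442 such sites, of which 31 had their centre within 5 kb of a member and 81 within 75 kb. TNF and LTB start 6957 bp apart and share their 17 sites of the wider view, which were counted once. Of the 81 sites, 19 had N-CoR without p300, 26 had p300 without N-CoR, 15 had both and 21 had only AML1 or AML1-ETO. Sites without a co-regulator made up 25.9% (exact Clopper-Pearson 95% interval 16.8 to 36.9%), against 41.6% of all sites of the genome. The 81 sites were taken near protein-coding genes, and the sites of the genome were not matched for this. An H3K4me3 summit lay within 1000 bp of 53.1% of the 81 and of 42.2% of all sites. The difference is therefore not read as a trait of these genes. Sites with both co-regulators made up 18.5% (10.8 to 28.7%), against 13% of the sites of the genome (3837 of 29442), a share that lies inside the interval. The 15 include the site downstream of TNFAIP3, which the 75 kb window had been set to take in, so this share is given as a description. These intervals cover counting error over sites alone. Neighbouring sites share their region and are not independent. Within 5 kb the counts were 9 with N-CoR alone of the co-regulators, 11 with p300 alone, 5 with both and 6 with neither. A site with both co-regulators lay within 5 kb of 4 members, NFKB2, NFKBIA, LTB and BCL3, whereas 14.3% of all protein-coding genes had such a site. The last 3 of these had all 4 proteins at a site, against 8.54% of genes. A site with N-CoR alone of the co-regulators lay at 7 members (17.8% of genes) and one with p300 alone also at 7 (37.6%), while a Runx site with neither lay at 4 (35.2%). Within 75 kb, sites with both co-regulators were found at 7 members (34.8%), sites with all 4 proteins at 6 (23.7%) and Runx sites with neither co-regulator at 8 (68.9%). TNFAIP3 is among those with both co-regulators and with all 4 proteins through its downstream site alone, so nothing is read from these counts.

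**Figure D2:**
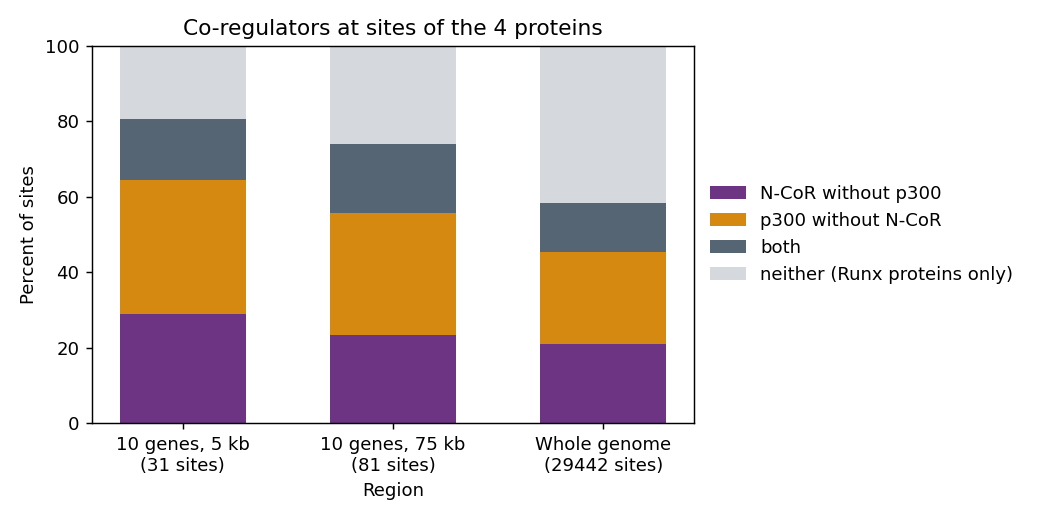
Percent of sites (y axis) with N-CoR, p300, both or neither at the 10 genes within 5 kb, within 75 kb and in the whole genome (x axis, with the number of sites in each bar). Sites with neither co-regulator make up 19.4% within 5 kb, 25.9% within 75 kb and 41.6% of the genome. The sites of the genome were not matched for nearness to genes or to H3K4me3.

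The sites were next placed relative to H3K4me3 and gene starts. An H3K4me3 summit lay within 1000 bp of 22 of the 26 sites with p300 and without N-CoR, 84.6% (65.1 to 95.6%), and of 6 of the 19 sites with N-CoR and without p300, 31.6% (12.6 to 56.6%). In the genome these shares were 88.2% and 18.2%, and both lie inside these intervals. Of the 26 sites with p300 alone, 24 were within 1000 bp of an annotated start and 2 in other exons. Of the other sites, 12 of the 19 with N-CoR alone, 9 of the 15 with both and 10 of the 21 with neither were also within 1000 bp of an annotated start, which made 55 of the 81. An annotated start was that of any transcript of any gene, internal and non-coding ones included. The same shares over all sites of the genome were not computed, so nothing is read from these counts. Within 1 kb of the gene start, p300 was found at 6 members (32.2% of all genes), NFKB1, NFKB2, REL, RELB, NFKBIA and TNFAIP3. AML1-ETO was found there at 6 (17.4%), NFKB1, NFKB2, RELA, NFKBIA, TNFAIP3 and BCL3. N-CoR was found at 3 (9.49%), NFKB2, NFKBIA and BCL3, and AML1 also at 3 (14.2%), NFKB1, NFKB2 and NFKBIA. H3K4me3 was found there at 8 members (54.2%), LTB and BCL3 being the others. As sites, N-CoR without p300 stood within 1 kb of the start of 3 members (4.18%), p300 without N-CoR at 5 (27.1%), both co-regulators at 1 (5.52%), all 4 proteins at the same gene, NFKBIA (2.36%), and a Runx site with neither at 2 (13.1%), RELA and BCL3.

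Among the genes for the activating subunits, REL and RELB had p300 within 1 kb of the start and RELA had AML1-ETO. None had N-CoR there, and neither did most protein-coding genes, of which 9.49% had it. REL (chr2:61108626-61158747, plus strand) had p300 summits 210 bp upstream and 87 bp downstream of its start, between H3K4me3 summits 278 bp upstream and 323 bp downstream. The nearest AML1-ETO summit was 45770 bp from the downstream site and the nearest AML1 summit 45784 bp. RELB (chr19:45504719-45541450, plus strand) also had p300 on both sides of its start, 247 bp upstream and 347 bp downstream, with an H3K4me3 summit 198 bp downstream between them. The nearest N-CoR summit was 144440 bp from the upstream p300 site of RELB. RELB and TNF were the members with no AML1, AML1-ETO or N-CoR summit within 5 kb. RELA (chr11:65421070-65430561, minus strand) had an AML1-ETO summit 213 bp upstream of the start without AML1 or a co-regulator, and H3K4me3 summits 400 bp upstream and 554 bp downstream. A further site, with AML1 and AML1-ETO, lay beyond its 3′ end. As an example of a p300 site without a Runx protein, the reference sequence of the upstream site of REL (chr2:61108366-61108465, plus strand of GRCh37 as for all sequences here) is given. It holds none of the motifs searched, which are named at the sites that have them:

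REL upstream p300 site: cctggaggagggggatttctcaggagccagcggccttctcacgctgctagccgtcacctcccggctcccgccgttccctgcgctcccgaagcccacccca

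Away from its start, REL had 1 site with N-CoR, AML1-ETO and AML1, 45860 bp downstream of the start in an exon annotated as UTR (chr2:61154425-61154546). The summits of N-CoR and AML1-ETO were 8 bp apart there, and the nearest p300 summit was 45773 bp away. The co-regulators nearest to RELA lay 22342 bp from its start, beyond the 3′ end, in SIPA1, the gene of a Rap GTPase-activating protein. That site (chr11:65408137-65408300), within 1000 bp of an annotated start of SIPA1, held all 4 proteins, with AML1-ETO peak number 194, N-CoR number 613, p300 number 1340 and AML1 number 2819 of their lists.

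As at REL and RELB, p300 stood at the start of the precursor genes, and at NFKB2 N-CoR did too. NFKB1 (chr4:103422487-103538459, plus strand) had p300 51 bp downstream of the start without a Runx protein, and a second site at 565 bp with p300, AML1 and AML1-ETO summits within 44 bp. The nearest N-CoR summit to the second site was 72615 bp away, in an intron of the same gene, where it formed a site with AML1-ETO and AML1. At this intronic site the N-CoR and AML1-ETO summits stood 1 bp apart and the AML1 summit was number 532 of its list. It was the only N-CoR summit within 75 kb of NFKB1. Its sequence (chr4:103495617-103495729) is shown because it holds the ETS core AGGAAG at 2 places and the PU.1 consensus GAGGAA at 1, all on the minus strand and in capitals. The PU.1 consensus overlaps an ETS core wherever GAGGAAG is read:

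NFKB1 intron site: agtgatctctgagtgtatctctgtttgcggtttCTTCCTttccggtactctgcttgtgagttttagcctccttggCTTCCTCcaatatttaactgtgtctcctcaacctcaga

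At NFKB2 (chr10:104153867-104162281, plus strand) N-CoR and p300 stood side by side. AML1 and N-CoR summits fell on the same base 23 bp upstream of the start, with the AML1-ETO summit at a distance of 20 bp, and the p300 summit was 141 bp from N-CoR, at 118 bp downstream of the start, so that the windows of the co-regulators did not touch. The AML1 peak was number 288 of its list. A second pair lay 5509 bp downstream of the start, in a coding exon near an annotated internal start and an H3K4me3 summit. Its N-CoR and p300 summits were 72 bp apart, in a site without a Runx protein. These were late entries of their lists, number 9703 for N-CoR and 8319 for p300. An AML1-ETO summit formed a separate site nearby, 214 bp from the N-CoR summit and 286 bp from the p300 summit.

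NFKBIA and TNFAIP3 encode inhibitors of the pathway, and BCL3 a nuclear IkB protein that can also activate transcription with p50 or p52. NFKBIA (chr14:35870285-35873955, minus strand) is a short gene, and N-CoR stood at all 3 of its sites within 5 kb. Upstream, 63 bp from the start, N-CoR, AML1-ETO and AML1 summits lay within 39 bp. Inside the gene, 869 bp downstream of the start, all 4 proteins had summits within 10 bp, the tightest grouping of the 9 four-protein sites at these genes. Of the 2286 four-protein sites of the genome, 99.0% spread over at least this distance. The AML1-ETO peak there was 1.32% of the way down its list and the N-CoR peak 2.83%, number 283, whereas p300 was number 3914 and AML1 number 6997 of theirs. The last site, 3447 bp from the start, had N-CoR and AML1-ETO. H3K4me3 summits stood 209 and 1135 bp downstream of the start. The upstream site is shown because it holds, in capitals, the strict NF-kB consensus (chr14:35873956-35874087, beginning at the base next to the gene start; the 7 bases of the site inside the transcript are left out):

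NFKBIA upstream site: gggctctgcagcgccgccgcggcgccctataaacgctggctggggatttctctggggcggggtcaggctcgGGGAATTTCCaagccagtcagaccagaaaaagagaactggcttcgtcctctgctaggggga

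The match lies 7 bp from the AML1 summit, 19 bp from the N-CoR summit and 32 bp from the AML1-ETO summit. It was found within 50 bp of the centre of 0.173% of all sites of the genome and in 2 of the 31 sites within 5 kb of the members, the other being the p300 site downstream of the start of REL. In the RefSeq promoters (250 bases before to 50 after the start, GRCh38.p14), which hold 9 of the 10 members, it was found for NFKB1, REL, NFKBIA, TNFAIP3 and LTB, against 0.579% of all 27305 promoters. Such a match is a description of the letters, and NF-kB binding was not measured.

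TNFAIP3 (chr6:138188351-138204451, plus strand) had p300 44 bp and AML1-ETO 110 bp downstream of the start, flanked by H3K4me3 summits 461 bp upstream and 469 bp downstream. Neither AML1 nor N-CoR was present at its start. An AML1-ETO summit in the 3′ UTR and an N-CoR summit just beyond the gene were 888 bp apart and did not form a site. The wider view added a site of all 4 proteins, 60721 bp downstream of the start and between genes (chr6:138248964-138249180), with no H3K4me3 summit nearer than 60252 bp. There the N-CoR peak was number 145, AML1 number 579 and AML1-ETO number 606, against number 4440 for p300. The summits were spread over 117 bp in the order N-CoR, p300, AML1, AML1-ETO, and only 7.48% of four-protein sites spread as far. N-CoR and AML1-ETO, 117 bp apart, were joined through the p300 and AML1 windows between them. The nearest gene start was that of TNFAIP3. Its sequence (chr6:138248964-138249180) carries, in capitals, the degenerate NF-kB consensus and the Runx consensus TGTGGT, on the minus strand, in its left part and a pair of overlapping ETS cores, also on the minus strand, right of its centre:

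TNFAIP3 downstream site: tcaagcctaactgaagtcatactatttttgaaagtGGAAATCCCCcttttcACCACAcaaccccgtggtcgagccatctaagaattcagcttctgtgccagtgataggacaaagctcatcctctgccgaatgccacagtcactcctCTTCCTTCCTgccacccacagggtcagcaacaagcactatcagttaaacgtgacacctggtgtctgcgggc

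The Runx consensus was 3 bp from the N-CoR summit and 114 bp from the AML1-ETO summit, and the ETS cores were 15 and 19 bp from the AML1-ETO summit.

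BCL3 (chr19:45250962-45263301, plus strand) had the most sites within 5 kb, 6, and more AML1-ETO and N-CoR summits than the other members. Its 4 N-CoR summits were reached by 1.87% of protein-coding genes and its 5 AML1-ETO summits by 2.78%. N-CoR stood 159 bp and AML1-ETO 10 bp upstream of its start as separate sites 149 bp apart, a second AML1-ETO summit lay 969 bp downstream, the only H3K4me3 summit within 5 kb was 1384 bp downstream, and neither p300 nor AML1 had a summit within 1 kb. An intronic site 5791 bp downstream of the start held all 4 proteins, with AML1-ETO peak number 5 of the 18087 and N-CoR number 36. N-CoR and p300 had their summit on the same base, 23 bp from the AML1-ETO summit. A further site in the gene, at 6809 bp, had AML1-ETO, N-CoR and p300 but not AML1, as did a site 5658 bp upstream of the start. Beyond the gene, at 16400 bp, N-CoR and AML1-ETO were found without p300. The sequence of the intronic site (chr19:45256685-45256821) has, in capitals, a match to the degenerate NF-kB consensus on both strands and the ETS core overlapping the PU.1 consensus on the minus strand:

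BCL3 intron site: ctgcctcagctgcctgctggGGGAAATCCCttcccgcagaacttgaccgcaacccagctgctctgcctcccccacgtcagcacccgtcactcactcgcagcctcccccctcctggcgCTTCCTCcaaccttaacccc

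The genes closest to BCL3 in the 5 summit counts within 5 kb were NFKBID, HCST and LIMS2, each at a summed difference of 1 summit. NFKBID encodes another nuclear IkB protein and HCST an adaptor of natural killer receptors. They lie close together on chromosome 19, their windows overlap, and their counts are not independent.

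**Figure D3:**
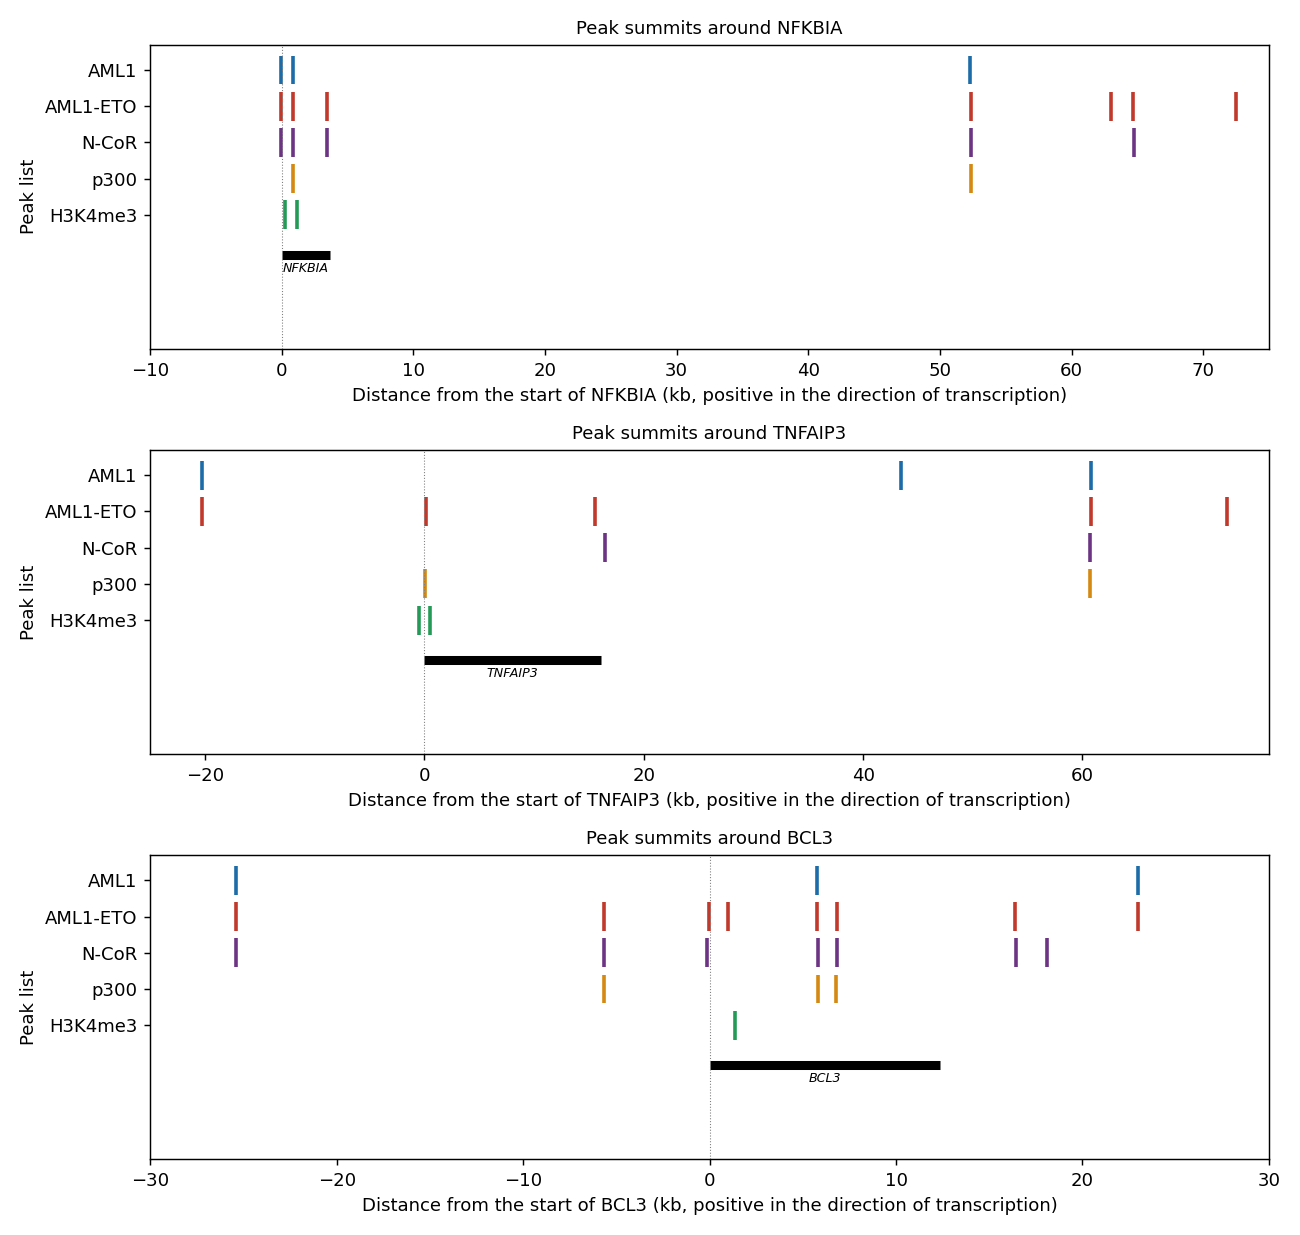
Positions of summits of the 5 lists (rows) around NFKBIA, TNFAIP3 and BCL3, as distance in kb from the gene start (x axis, dotted line at the start), with each vertical bar a summit and black bars the genes. N-CoR stands at the start of NFKBIA, 16481 bp downstream at TNFAIP3 and again at its four-protein site at 60721 bp, and at 7 places around BCL3.

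TNF and LTB encode ligands. TNF (chr6:31543342-31546113, plus strand) had no AML1, AML1-ETO or N-CoR summit within 5 kb, and its single p300 summit lay inside LTB. It had an H3K4me3 summit 198 bp downstream of the start, number 19507 of the 19632 in that list. Upstream, between NFKBIL1 and LTA, stood a pair of sites with all 4 proteins, 1227 bp from each other and 16324 and 15097 bp from the start of TNF. The farther site (chr6:31526904-31527132) held the first peak of the N-CoR list, with AML1-ETO number 113, p300 number 342 and AML1 number 377. The nearer site (chr6:31528158-31528331) held N-CoR peak number 7, with p300 number 156, AML1-ETO number 361 and AML1 number 533. The nearest H3K4me3 summits were 11443 and 12670 bp away. The farther is intergenic. The nearer lies in an exon of an annotated gene without a symbol, and the nearest protein-coding start is that of LTA, 11586 bp away. LTA encodes lymphotoxin-alpha, the partner of LTB. Both sequences are shown because they contain N-CoR peaks number 1 and 7 and differ in how the motifs, in capitals, lie beside the summits:

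TNF upstream site, farther (chr6:31526904-31527132): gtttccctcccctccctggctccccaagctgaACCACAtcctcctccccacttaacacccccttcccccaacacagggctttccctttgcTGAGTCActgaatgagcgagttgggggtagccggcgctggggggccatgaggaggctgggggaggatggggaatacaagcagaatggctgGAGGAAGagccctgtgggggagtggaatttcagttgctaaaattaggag
TNF upstream site, nearer (chr6:31528158-31528331): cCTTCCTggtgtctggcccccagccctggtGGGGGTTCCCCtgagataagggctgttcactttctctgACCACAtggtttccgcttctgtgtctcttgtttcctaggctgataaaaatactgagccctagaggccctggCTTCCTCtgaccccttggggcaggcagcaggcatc

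The farther site has the Runx consensus (minus strand) 16 bp from the AML1-ETO summit and GAGGAAG, the PU.1 consensus overlapping the ETS core, 3 and 4 bp from the N-CoR summit. An AP-1 consensus, TGANTCA, lies between them, 6 bp from the AML1 summit. The order of summits was AML1-ETO, AML1, p300, N-CoR over 129 bp, a spread reached by 4.55% of four-protein sites. The N-CoR and AML1-ETO windows did not overlap and were joined through those of AML1 and p300. At the nearer site the AML1 and AML1-ETO summits shared a base 20 bp from the Runx consensus, N-CoR stood 65 bp and p300 74 bp from them, and the overlapping ETS and PU.1 sequences were 26 and 27 bp from N-CoR. A second ETS core, near the left end of the nearer site, was 47 bp from the AML1-ETO summit and 112 bp from N-CoR, so no single order of the summits around ETS cores held there. At the nearer site the degenerate NF-kB consensus lay 15 and 16 bp from the Runx summits in overlapping matches.

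LTB (chr6:31548302-31550299, minus strand) encodes lymphotoxin-beta, the membrane anchor of the lymphotoxin heterotrimer. It had no summit of the 4 proteins within 1 kb of its start. The p300 summit 1501 bp downstream of the start lies in an exon with an H3K4me3 summit 386 bp away. Upstream of LTB, and at the start of the neighbouring gene LST1, p300 and N-CoR formed separate sites 111 bp apart, 3537 and 3648 bp from the start of LTB. A site of all 4 proteins followed at 4166 bp (chr6:31554392-31554538), in LST1 564 bp from its start, with AML1-ETO peak number 73 and N-CoR number 93. The stretch of it that is not annotated as UTR (chr6:31554392-31554475) holds the PU.1 consensus overlapping the ETS core, in capitals, 15 and 16 bp from the p300 summit:

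LTB upstream site: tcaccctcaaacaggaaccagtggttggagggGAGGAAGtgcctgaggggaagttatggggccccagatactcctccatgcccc

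LST1 lies nearer to these sites than LTB does, and assignment by distance cannot tell which gene they serve. Another four-protein site within 75 kb lay in AIF1, 33402 bp upstream of LTB, with AML1-ETO number 230 and N-CoR number 805. The 4 four-protein sites of this window were matched by 0.903% of protein-coding genes and its 8 N-CoR summits by 1.76%. The region is dense in genes, and the window also held 10 H3K4me3 summits, as many as or more than which were found at 7.48% of genes.

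**Figure D4:**
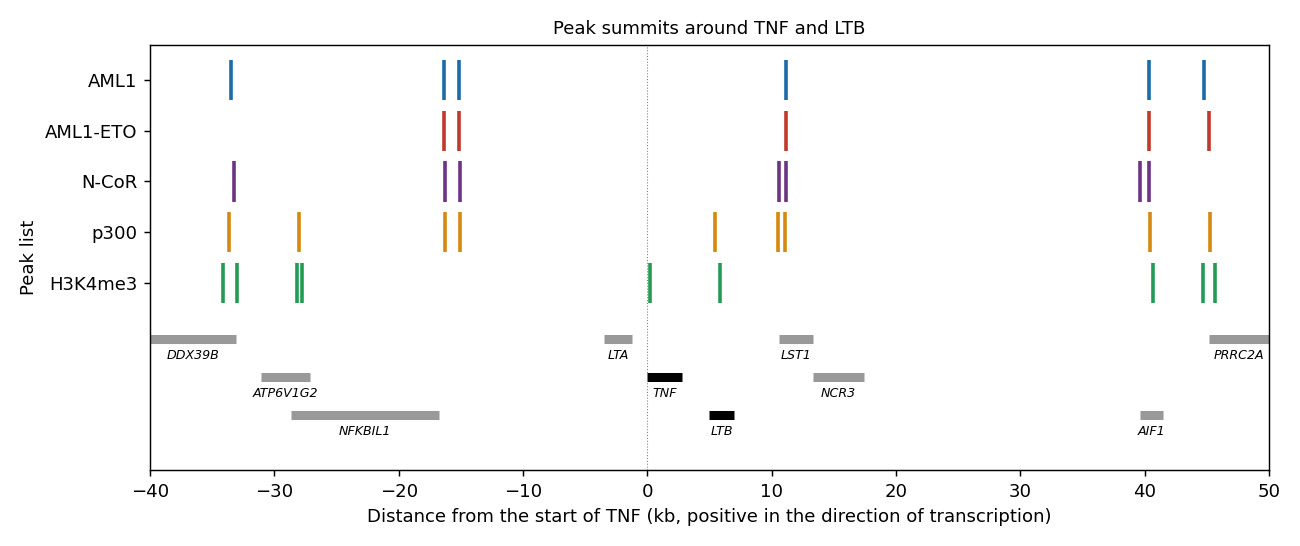
Positions of summits of the 5 lists (rows) from 40 kb upstream to 50 kb downstream of the TNF start, as distance in kb (x axis), with vertical bars for summits, black bars for TNF and LTB and grey bars for other protein-coding genes with a symbol. Sites with summits of all 4 proteins lie 16324 and 15097 bp upstream of TNF, in LST1 and in AIF1, and TNF itself carries only H3K4me3.

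The lists are in an order whose basis the sources used here do not give, but it is not by position, and early peaks coincide with other lists more often than late ones. Of the first 1000 peaks of the N-CoR list, 72.0% belonged to four-protein sites, against 4.4% of the last 1000. Within 75 kb of the members lay 2 of the first 10 N-CoR peaks, both upstream of TNF, and 4 of the first 100, the others being at BCL3 and upstream of LTB. Of the 34 N-CoR peaks at these genes, 8 were in the first 10% of the list, a share of 23.5%. The same share was 35.7% for AML1 (10 of 28), 20.9% for AML1-ETO (9 of 43) and 14.6% for p300 (6 of 41). The site downstream of TNFAIP3, which the 75 kb window had been set to take in, adds peaks to the N-CoR, AML1 and AML1-ETO counts. Nothing is read from these shares. Of the first 100 peaks of the other lists, 2 of AML1-ETO, 1 of AML1 and none of p300 lay within 75 kb of the members. Counts this small, those of N-CoR included, are not set against each other. The median position was 38.3% of the way down the list for AML1-ETO, 40.3% for p300, 41.5% for N-CoR and 61.4% for AML1.

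**Figure D5:**
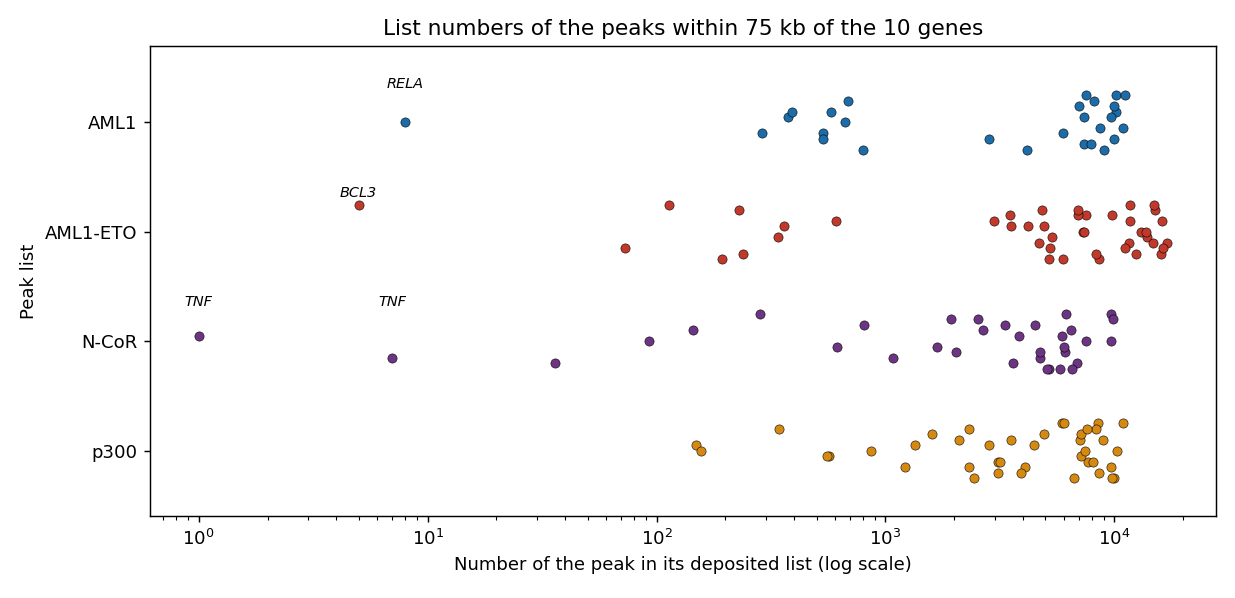
Number of each peak within 75 kb of the 10 genes in its deposited list (x axis, log scale, 1 being the first entry), in a row for each protein list with points spread vertically for visibility; the nearest of the 10 genes is written at numbers up to 8. The N-CoR points numbered 1 and 7 are the sites upstream of TNF, AML1-ETO number 5 is the intronic site of BCL3, and the lowest p300 number is 149.

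Across the 81 sites, ETS cores were found within 50 bp of the centre of 28, 34.6%, close to the 33.1% of all sites. The Runx consensus was found at 11, 13.6%, against 24.0% of all sites. None of the 26 sites with p300 alone held it, against 3.94% of that class in the genome, while 5 of the 19 sites with N-CoR alone did, 26.3% against 25.7%. It was found at 5 of the 21 sites with neither co-regulator, 23.8% against 37.8%, and at 1 of the 15 with both, 6.67% against 15.1%. The degenerate NF-kB consensus was found at 10 sites, 12.3%, against 3.69%, and within 5 kb at 7 of 31, 22.6%. The sites of the genome were not matched for nearness to gene starts. Of the RefSeq promoters, which are longer than these windows, 6 of the 9 of members and 10.8% of all held this consensus. Read over their whole extent, 4 of the 9 four-protein sites at the members held the degenerate NF-kB consensus, against 7.31% of the 2286 in the genome. The Runx consensus was held by 4, against 30.7%. The site downstream of TNFAIP3, for which the window had been chosen, is among the 4 in both cases. Within 50 bp of the centre, 1 of the 9 held the degenerate NF-kB consensus (the intronic site of BCL3) and 1 the Runx consensus (the nearer site upstream of TNF). Of the 15 sites with both co-regulators, 1 held the degenerate NF-kB consensus by that reading, 6.67% against 4.35% of that class in the genome. The C/EBP consensus TTGCNNCAA was found at none of the 81 sites and at 0.849% of all sites.

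A further 46 genes of the pathway gave the setting of these 10. Of them, 41 had H3K4me3 within 5 kb (68% of all protein-coding genes), 31 AML1-ETO (41.4%), 24 AML1 (34.9%), 22 p300 (45.5%) and 17 N-CoR (26.7%), and 9 had a site with both co-regulators (14.3%). For p300 the count was close to the share of all genes. The counts by role rest on few genes and are to be read against the same shares. Among 12 ligands and receptors, p300 was found at 2 and N-CoR at 5. Those with the most co-regulator sites were TNFRSF1A with 4 and TNFRSF1B with 3, the receptors of TNF, followed by IL1B, with 2 N-CoR sites and neither p300 nor H3K4me3, and LTBR, the receptor of LTB, also with 2 N-CoR sites. Among 20 kinases and adaptors, p300 was found at 10 and N-CoR at 6. CHUK, the kinase IKK-alpha, and RIPK1 had 3 co-regulator sites each, and MALT1 and TAB1 had 2, as did TRAF1, which comes later in the alphabetical order used for ties. Of 14 other inhibitors and feedback genes, 10 had p300, 6 N-CoR and 11 AML1-ETO. TNIP1, which binds A20, had 5 co-regulator sites and 8 AML1-ETO summits, NFKBIL1 also had 5, and NFKBID had 4, while ITCH, a ubiquitin ligase that works with A20, had 2, as did NFKBIE, OTUD7B and ZC3H12A. The window of NFKBIL1 holds both sites upstream of TNF described above. The genes named by role were picked for their high counts, and shares of all genes with as many co-regulator sites were not computed. Lengths also differ, TNIP1 spanning 63633 bp, so no count here is read as unusual.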

How the data were processed

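The data were ChIP-seq peak summits from Kasumi-1 cells for H3K4me3, p300, N-CoR, AML1 and AML1-ETO. Per the labels (submitters' processing notes) CASAVA 1.6, Bowtie 0.12.8 and MACS2 2.0.10.20131216 were used. The authors aligned reads to GRCh37, combined both replicates before peak calling and kept peaks under p = 1e-20. The deposited windows span 100 bp, with the summit read at BED start plus 50. Peak names in the N-CoR list carry the prefix of the ETO list, and those in the p300 and H3K4me3 lists that of AML1, so each list was identified by its sample. The files hold no scores or read counts, and a stricter threshold could not be applied.

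Genes came from GENCODE release 44 lifted to GRCh37, and a gene start is the annotated 5′ end. Mitochondrial peaks (6 for AML1, 1 each for N-CoR and H3K4me3) were left out of sites. Motifs were read on both strands. The strict NF-kB consensus is contained in the degenerate one. Promoter sequences were from RefSeq. All 10 genes were named, and of the further pathway genes up to 4 per role with the most co-regulator sites within 5 kb, ties in alphabetical order. TRAF1, NFKBIE, OTUD7B and ZC3H12A were named beside them as ties after their values were seen. Genes and lists were chosen with earlier results of these data known. Alternatives were other windows, the first part of each list, motif distances and gene sets. On simulated data the joining of summits recovered 4703 of 4703 sites. These sites were planted far apart with their summits close together, so this checks the code alone. Close neighbouring sites, and summits joined only through others between them, were not simulated. H3K27me3 and input were not analysed here. Software was Python 3.11.15 with pysam 0.24.0, numpy 2.4.6, SciPy 1.17.1 and matplotlib 3.10.9.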

Additional observations from a re-analysis of the deposited data

How the results depend on the processing

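Of 89 values under alternatives, 56 stayed within 1.5 times the main count or within its interval, and 33 moved. These are counts and percentages without a sign, but the order between some of them turned. With the first part of each list, N-CoR summits within 5 kb outnumbered those of p300 (9 against 6, where all peaks gave 14 and 16). Within 75 kb, AML1-ETO then outnumbered H3K4me3 (27 against 26, where all peaks gave 43 and 45), as it did by nearest start (23 against 17). Sites with both co-regulators outnumbered those with N-CoR alone at 100 bp (18 against 16) and 250 bp (19 against 13), where the main width gave 15 and 19. They outnumbered sites with neither at 250 bp (19 against 14) and within 50 kb (15 against 14), where the main count of neither was 21. The gene windows were widened or narrowed (2 or 10 kb, and 50 or 100 kb), and summits were joined at other widths (25, 100 and 250 bp). Every count of summits and of co-regulator classes then stayed within 1.5 times its main value or within its interval. Taking the first part of each list, up to its middle, removes entries by construction. It left 11 AML1-ETO, 10 H3K4me3, 9 N-CoR, 6 p300 and 5 AML1 summits within 5 kb, and 27, 26, 20, 22 and 12 within 75 kb, with 10 sites of N-CoR alone, 12 of p300 alone and 11 of neither. Counting within 75 kb only summits whose nearest protein-coding start is that of a member left 23 AML1-ETO, 17 H3K4me3, 16 p300, 15 N-CoR and 12 AML1 summits, since the other summits lie nearer to other genes. With motifs read within 25 bp of the site centre, 6 sites held the Runx, 13 the ETS and 11 the PU.1 consensus, 1 the strict and 4 the degenerate NF-kB consensus. Within 100 bp, 32 held the PU.1 and 7 the AP-1 consensus, 5 the strict and 17 the degenerate NF-kB consensus. Shares of all sites of the genome at these motif distances were not computed. Over all annotated genes in place of protein-coding ones, the share with a summit within 5 kb was 33.3% for H3K4me3, 22% for AML1-ETO and also for p300, 17.8% for AML1 and 13.7% for N-CoR. An alternative chosen after seeing the data counted only co-regulator windows that overlap the AML1-ETO window itself. It moved the farther site upstream of TNF and the site downstream of TNFAIP3 from both co-regulators to p300 alone, so that AML1-ETO sites with p300 alone went from 3 to 5. No paired analysis was possible because the lists used were called on pooled replicates, for which reason no replicate was left out either. Reads were not analysed here. Without read counts or scores, a missing summit does not show that a protein is absent.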

Other observations

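A site outside the 10 genes but within 75 kb of NFKB2 stood at the promoter of MIR146B, the gene of a microRNA known as a brake on NF-kB signalling. N-CoR, AML1 and AML1-ETO had summits within 49 bp there (chr10:104195270-104195418), 41477 bp downstream of the start of NFKB2, with H3K4me3 at 169 bp and p300 no nearer than 2944 bp. N-CoR number 9865 and AML1 number 10211 were late entries, 98.6% and 87.3% of the way down their lists, and AML1-ETO number 7282 was at 40.3% of its list. In the window of RELA, AML1 peak number 8 lay at the start of KAT5, the gene of the acetyltransferase TIP60, with p300 number 1221 and without AML1-ETO or N-CoR.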
